A study of Mus musculus with 6 samples.

Results

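The genes described here encode the proteasome, the enzymes that attach ubiquitin to proteins, the enzymes that remove it, and the ubiquitin-like modifier SUMO. They were chosen by gene symbol in the array annotation: subunits and activators of the proteasome (Psma, Psmb, Psmc, Psmd and Psme genes), ubiquitin-conjugating enzymes (Ube2 genes), deubiquitinases (Usp and Uchl genes) and Sumo genes. Psmb8 and Psmb9, the inducible subunits of the antigen-presenting proteasome, were left out by the rule. Of 12422 probe sets tested, 122 were members, covering 91 of the 8251 genes with a single symbol. No filter on low values was used, so all 122 entered the counts. A probe set is a group of short oligonucleotides on the array that together report 1 transcript. The array was the Affymetrix U74Av2, and the values are log2 expression values.

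RNA came from whole cerebellum at postnatal day 11. There were 3 L1CAM knockout (-/Y) mice, male by their labels, and 3 wild type siblings whose sex is not stated, all of strain 129S2/SvPasCrlf, with 1 array per mouse. L1CAM is an X-linked adhesion molecule of growing axons, and the labels name no cell type to which its loss was limited. The altered part of the gene is not given. Knockout and wild type were compared to find transcripts whose level differs when L1CAM is missing. Whole tissue was measured, so fewer cells of a type and less RNA per cell cannot be told apart.

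As background, proteins are marked for destruction by chains of ubiquitin. A conjugating enzyme carries activated ubiquitin and, with a ligase, passes it to the target. The proteasome then degrades the target: its regulatory particle binds the ubiquitin chain, unfolds the protein with a ring of ATPases and feeds it into a barrel-shaped core, where the beta subunits cut it. Deubiquitinases trim or remove the chains. SUMO is attached by a parallel set of enzymes and mostly changes where proteins bind rather than destroying them. In neurons this system sets the turnover of synaptic and growth cone proteins, and Uchl1 is one of the abundant proteins of brain.

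L1cam itself read 8.25, 8.01 and 7.91 in the knockouts and 8.79, 8.48 and 8.73 in wild type, so its groups did not overlap. Markers of cerebellar neurons were well represented, with 12 of 15 listed genes measured and a median level at percentile 96.5 of the array, against percentile 26.7 for 4 forebrain genes. Of the 16 cerebellar neuron probe sets 13 had a lower knockout mean (median difference -0.055), 2 of them, for Atoh1 and En2, with an unadjusted p under 0.05. Over all probe sets 37.7% had a higher knockout mean, as did 58.4% of those above the 90th percentile of level. In either direction 5.08% of all probe sets had an unadjusted limma p under 0.05. Knockout 1 stood apart from the other 5 arrays. Its Y-linked Eif2s3y read 7.11 against at least 8.59 elsewhere and its Y-linked Uty 6.67 against at least 7.32, which goes against its male label. The Y-linked Kdm5d read 7.22 to 7.41 and Xist 6.31 to 6.41 over all 6 arrays, with knockout 1 inside the Xist range. Its Gapdh control probe sets differed by 0.67 between the 3' and the 5' end of the transcript, against at most 0.13 elsewhere, a gap that can widen when RNA is degraded. All 4 blood probe sets had higher knockout means (median difference 0.22), and 3 of them had an unadjusted p under 0.05. Relative to the mean of 6 arrays their median was -0.02, -0.13 and -0.16 in wild type 1 to 3 and 0.03, 0.22 and 0.14 in knockout 1 to 3. Over 5 choroid plexus probe sets the same median was -0.22, 0.14 and -0.0038 in wild type 1 to 3 and 0.12, 0.17 and -0.21 in knockout 1 to 3. Of these, Ttr read 9.71, 12.55 and 12.13 in wild type 1 to 3 and 12.56, 12.43 and 10.20 in knockout 1 to 3. The part of cell composition, dissection, RNA quality or blood in the differences below was not tested. For the 35 probe sets of the genes named by rule, the value without knockout 1 is given where it differs by over 1.5 times, and for some others.

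No member passed a limma adjusted p of 0.05 over all probe sets, where 0% were called, and the smallest adjusted p among the members was 0.841. An unadjusted p under 0.05 was found for 12 member probe sets, or 9.84%, against 5.08% of all probe sets tested. Of these, 10 had a higher and 2 a lower mean in the knockouts, where 2.46% of all probe sets were higher and 2.62% lower at that level. Without knockout 1 there were 10, or 8.20%, against 3.88% of all probe sets. Single omissions gave from 8 such probe sets (6.56%, against 4.93% of all), without knockout 3, to 14 (11.5%), without wild type 2 (against 5.70% of all) or without knockout 2 (against 8.68% of all). The number higher was 6 without wild type 1 or without knockout 3. The groups did not overlap for 17 members (13.9%), 12 of them higher and 5 lower, against 10.4% of all probe sets (3.76% higher and 6.63% lower). All 12 members with an unadjusted p under 0.05 were among the 99 at or above the 40th percentile of level, where 5.66% of all probe sets reached it. At or above the 80th percentile there were 7 among 52, where 6.36% reached it. None of these counts is a test of the list.

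Proteasome subunits and activators had positive differences (knockout minus wild type) at 42 of 49 probe sets, with a median of 0.052. Over all probe sets 37.7% were positive and the median was -0.023. The conjugating enzymes were positive at 14 of 29 probe sets (median -0.015) and the Usp deubiquitinases at 19 of 39 (median -0.0096), so about as many lay above as below 0. After centring every array on its median, these medians were 0.084 for the proteasome, 0.017 for the conjugating enzymes and 0.022 for the Usp genes, beside 0.0089 over all probe sets. The signs of the last 2 groups therefore turned with the scaling, while that of the proteasome median did not under any other setting tried. The median for the proteasome ran from 0.024, without knockout 1, to 0.089, without knockout 2.

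**Figure D1:**
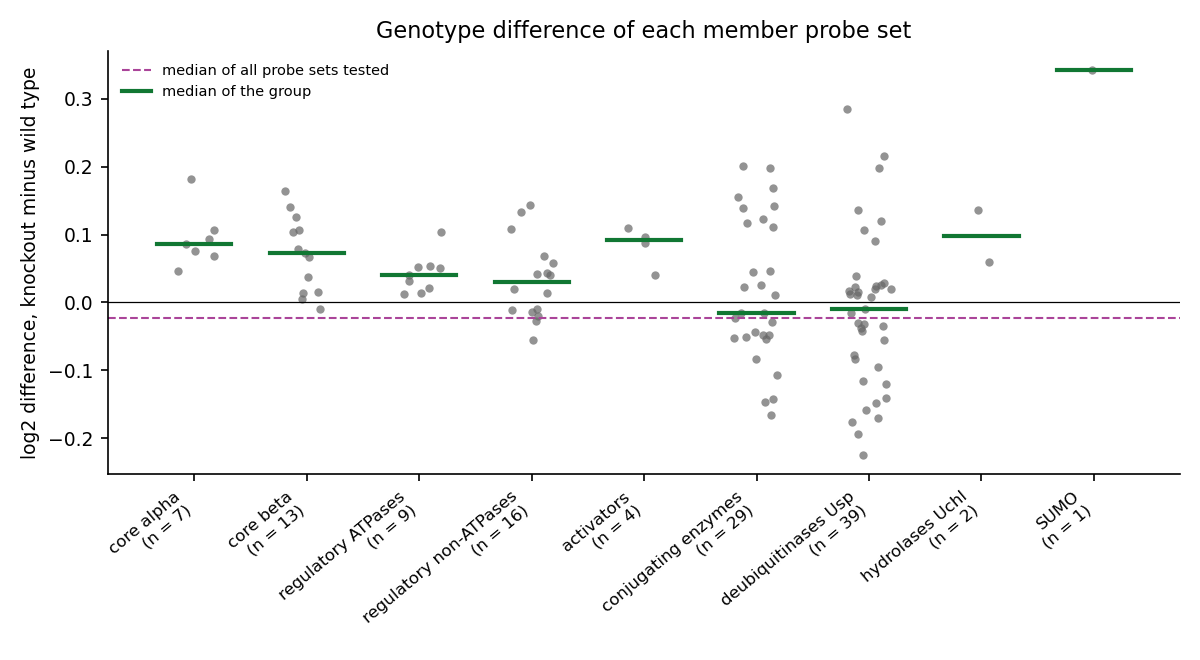
Each point is 1 probe set, placed by its log2 difference (knockout minus wild type, vertical axis) in its group (horizontal axis), with a green line at the group median and a dashed line at the median of all probe sets tested. The points of the alpha subunits, the regulatory ATPases and the activators all lie above 0, while those of the conjugating enzymes and Usp genes lie on both sides, with medians of -0.015 and -0.0096.

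The core particle is a stack of rings in which alpha subunits form the outer rings and gate the entrance, and beta subunits form the inner rings. All 7 alpha subunits, at 1 probe set each, had higher knockout means, with differences from 0.046 to 0.18 and a median of 0.086. Of the alpha subunits, 6 had a level above the 90th percentile of the array, and Psma1 lay at percentile 66.6. Levels of different probe sets depend on their oligonucleotides, so percentiles place a probe set on the array and do not rank the genes. The alpha median was 0.047 without knockout 1 and 0.16 without wild type 2, the ends of its range over single omissions.

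Psma6 was the member of the core with the smallest unadjusted p. It read 12.48, 12.46 and 12.42 in knockout 1 to 3 and 12.18, 12.43 and 12.21 in wild type 1 to 3. The knockouts lay close together, and wild type 2 fell within their range, so the groups overlapped. The difference was 0.18 (SE 0.075, 95% interval 0.016 to 0.35), or 1.13-fold, with an unadjusted limma p of 0.0346 and an adjusted p of 0.922. Without knockout 1 it was 0.17 (unadjusted p = 0.0843). Psma2 read 12.65, 12.52 and 12.61 in the knockouts against 12.44, 12.59 and 12.43 in wild type. Here too wild type 2 lay among the knockouts, and the difference was 0.11 (95% interval -0.046 to 0.26, limma adjusted p = 0.927).

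Of 13 probe sets for 8 beta subunits, 12 had a positive difference, with a range from -0.0099 to 0.16, a median of 0.073 that ran from 0.029, without wild type 3, to 0.092, without knockout 3. None had an unadjusted p under 0.05. The 3 subunits that carry the constitutive cutting activities are Psmb5, Psmb6 and Psmb7. Psmb5, which cuts after hydrophobic residues, read 11.02, 10.64 and 10.97 in the knockouts and 10.71, 10.83 and 10.67 in wild type at one probe set, a difference of 0.14 (95% interval -0.076 to 0.36) that was 0.071 without knockout 1. Knockout 2 was the lowest of the 6 arrays there, and the other 2 knockouts were the highest. A further Psmb5 probe set read between 10.26 and 10.38 in all arrays and differed by 0.0053, a value whose sign turned with array weights. Psmb6, which cuts after acidic residues, read 12.00, 11.72 and 11.81 in the knockouts and 11.64, 11.85 and 11.73 in wild type, with a difference of 0.10 that was 0.024 without knockout 1. Psmb7, which cuts after basic residues, read 11.70, 11.57 and 11.69 in the knockouts and 11.43, 11.71 and 11.45 in wild type. Its difference was 0.13 (95% interval -0.057 to 0.31), and wild type 2 was the highest array.

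Psmb1, a structural beta subunit, was measured by 3 probe sets that did not give 1 size of difference. One read 11.32, 11.05 and 11.20 in the knockouts and 10.98, 11.13 and 10.98 in wild type, a difference of 0.16 (95% interval -0.017 to 0.34) that was 0.097 without knockout 1. Another read 11.51 to 11.56 in the knockouts and 11.50 to 11.53 in wild type, and differed by 0.013, with a negative sign after quantile normalization or cyclic loess. The dimmest, at percentile 23.6, differed by 0.067. Psmb10, an inducible subunit of immune cells that the rule kept, read 10.60, 10.59 and 10.55 in the knockouts and 10.64, 10.59 and 10.46 in wild type. It differed by 0.015 (95% interval -0.13 to 0.16), by 0.0048 without knockout 1 and by -0.037 without wild type 3.

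The core subunits shared a pattern over arrays that did not split by genotype. Relative to the mean of 6 arrays, the median of the 20 core probe sets was 0.11 in knockout 1, -0.019 in knockout 2 and 0.044 in knockout 3. It was -0.095 in wild type 1, 0.037 in wild type 2 and -0.10 in wild type 3. Wild type 2 therefore lay above knockout 2, and the groups overlapped. Knockout 1 was the highest array for 9 of the 20 and wild type 3 the lowest for 9. Over the regulatory particle the same medians were 0.052, -0.031 and 0.013 in knockout 1 to 3 and -0.081, 0.043 and -0.022 in wild type 1 to 3. Over all probe sets these medians stayed between -0.028 and 0.024. Markers of dividing cells had medians of 0.24, -0.043 and -0.061 in knockout 1 to 3 and 0.13, -0.082 and -0.16 in wild type 1 to 3. Their part in the pattern of the core was not tested.

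**Figure D2:**
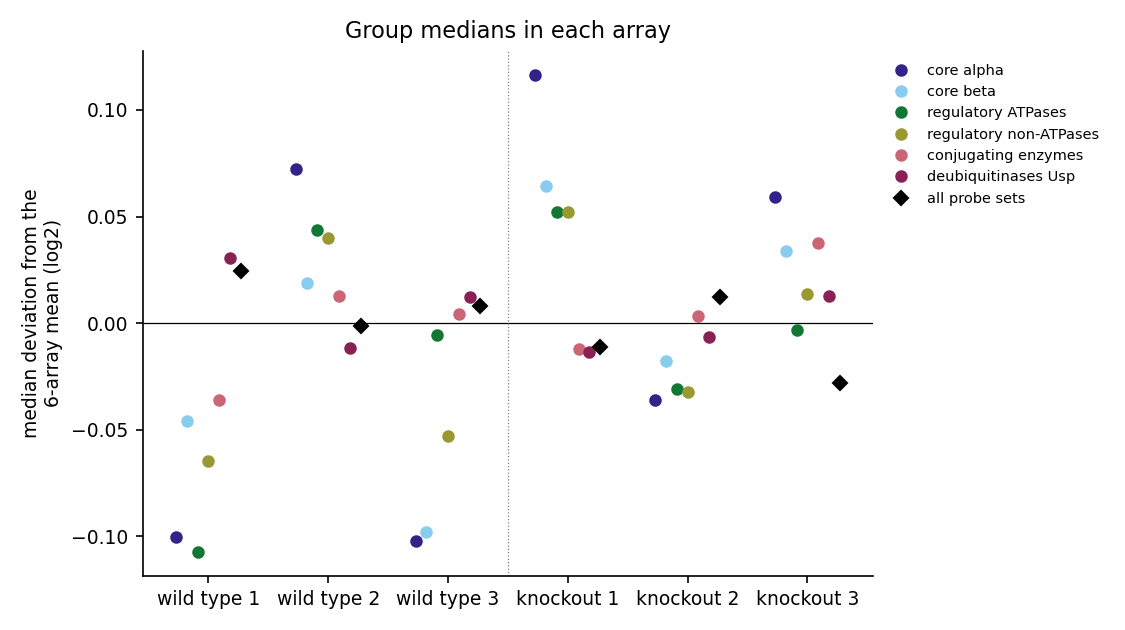
The vertical axis gives the median log2 distance to the 6-array mean for 6 groups of members and for all probe sets in each array along the horizontal axis, with wild type left of the dotted line. The alpha and beta subunits and both parts of the regulatory particle sit together in most arrays, high in knockout 1 and wild type 2 and low in wild type 1, while the conjugating enzymes and Usp genes stay between -0.036 and 0.038.

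The transcription factor Nfe2l1 is known to switch on proteasome genes through antioxidant response elements. The core of that element was searched as TGANNNNGC on both strands of the RefSeq promoter windows of assembly GRCm38.p6, which span 250 bases before to 50 after a gene's start, any overlap with other motifs included. A promoter was found for 71 of the 91 member genes. The letters occurred for 8 of 12 core genes (66.7%) and 8 of 17 genes of the regulatory particle (47.1%), against 45% of 27025 genes with a window, so a match is common by the letters alone. A stricter form, TGACNNNGC, chosen after the first, occurred for 2 of those 12 core genes against 14% of all genes. The matches that lie whole, with 10 bases on each side, before the start of a core gene are shown to let a reader see the letters searched, with the match in capitals and each run written 5′ to 3′ on the strand that carries it.
Psma4, chr9:54950722-54950750, plus strand: gtgggcagacTGAGCCCGCcccagcactg
Psma6, chr12:55384042-55384070, minus strand: tgagagctgaTGAGGTTGCctgacctgac
Psma6 at another start, chr12:55398723-55398751, minus strand: gcactgccccTGAGTAGGCgggccctcgc
Psmb5, chr14:54618024-54618052, minus strand: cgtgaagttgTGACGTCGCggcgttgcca
The far edge of the match lay 127 bases before the start of Psma4, 170 and 92 before the starts of Psma6, and 47 before that of Psmb5. No binding was measured here, so these are matches of letters and nothing more. The 2 probe sets of Nfe2l1 itself gave differences of 0.0036 and -0.052, with 95% intervals of -0.17 to 0.18 and -0.21 to 0.11.

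In the regulatory particle, the 6 ATPases that unfold the target were positive at all 9 probe sets, from 0.013 to 0.10, with a median of 0.040 that ran from 0.0069, without wild type 1, to 0.086, without wild type 2. No ATPase probe set had an unadjusted p under 0.05. Psmc3 had the smallest, 0.208, at a probe set that read 10.68, 10.56 and 10.48 in the knockouts and 10.34, 10.55 and 10.51 in wild type, a difference of 0.10 (95% interval -0.068 to 0.27) that was 0.051 without knockout 1. Its other 2 probe sets differed by 0.052 and 0.051, and both were negative without knockout 1 (-0.013 and -0.022). Psmc1 read 10.56, 10.54 and 10.56 in the knockouts and 10.34, 10.61 and 10.54 in wild type. The knockouts lay within the wild type range, and the difference of 0.054 was -0.024 without wild type 1. Psmc4 was the ATPase whose groups did not overlap, yet its difference was 0.021 at percentile 12.2, with all 6 arrays between 6.65 and 6.70.

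The non-ATPase genes were grouped by symbol. Psmd5, Psmd9 and Psmd10, which encode assembly chaperones, are therefore counted here and in the proteasome totals, with differences of -0.020, 0.043 and -0.014. The 14 genes include the scaffold, the ubiquitin receptors and the resident deubiquitinase of the regulatory particle. They were positive at 10 of 16 probe sets, from -0.055 for Psmd2 to 0.14 for Psmd3, with a median of 0.030 that ran from 0.0024, without wild type 3, to 0.072, without wild type 2. Psmd3, a scaffold subunit of the lid, read 11.49, 11.58 and 11.59 in the knockouts and 11.46, 11.44 and 11.33 in wild type. Its groups did not overlap, and knockout 1 lay just above the highest wild type array. The difference was 0.14 (SE 0.064, 95% interval 0.0011 to 0.29), or 1.10-fold, with an unadjusted limma p of 0.0485 and an adjusted p of 0.922. Without knockout 1 it was 0.18 (unadjusted p = 0.0407). Psmd8, another lid subunit, read 10.90, 10.84 and 10.79 against 10.62, 10.84 and 10.67, a difference of 0.13 (95% interval -0.027 to 0.29). Psmd14, the deubiquitinase of the lid that clips whole chains off the target, read 10.93, 10.81 and 10.89 in the knockouts and 10.63, 10.84 and 10.84 in wild type. Its difference of 0.11 (95% interval -0.059 to 0.27) was smaller than the range of the wild type arrays.

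Of the activators, which cap the core in place of the regulatory particle, 3 genes were measured and all 4 probe sets were positive, from 0.040 to 0.11 (median 0.092). This median was 0.015 without knockout 1 and 0.13 without knockout 2. Psme4 read 9.72, 9.37 and 9.59 in the knockouts and 9.39, 9.40 and 9.57 in wild type, so knockout 2 was the lowest array. Its difference was 0.11 (95% interval -0.096 to 0.32), and 0.030 without knockout 1. Psme1, an interferon-responsive cap, read 10.09, 9.79 and 9.78 in the knockouts and 9.83, 9.93 and 9.65 in wild type at its brighter probe set. That difference of 0.088 was -0.014 without knockout 1, and a probe set at percentile 7.43 differed by 0.097. Psmc3ip and Psme3ip1 match the symbol pattern but encode partner proteins, a recombination factor and a binding protein of an activator. They differed by 0.097 and 0.016 and are counted among the 122 but in none of the subunit groups.

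Among the 21 conjugating enzymes, the closely related Ube2d and Ube2e genes had 6 probe sets, for 4 genes, and all 6 were positive, from 0.11 to 0.20. Of these, 4 had an unadjusted p under 0.05, where 5.08% of all probe sets did. The 4 probe sets of the Ube2v and Ube2n genes were also all positive, from 0.026 to 0.14, and 37.7% of all probe sets were. Both families were singled out after their values were seen. The Ube2d and Ube2e enzymes work with many ligases. Ube2d3 read 11.59, 11.69 and 11.83 in the knockouts and 11.46, 11.54 and 11.52 in wild type at one probe set. All knockouts lay above all wild types, with a difference of 0.20 (SE 0.072, 95% interval 0.040 to 0.36), or 1.15-fold. The unadjusted limma p was 0.0192, the adjusted p 0.922, and without knockout 1 the difference was 0.26. Its other probe set read 10.47, 10.57 and 10.50 against 10.27, 10.36 and 10.44, again without overlap, and differed by 0.16.

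Ube2d2a read 11.02, 10.93 and 10.97 in the knockouts and 10.77, 10.80 and 10.76 in wild type. The wild type arrays lay close together, and all knockouts lay above them. The difference was 0.20 (SE 0.058, 95% interval 0.068 to 0.33), with an unadjusted limma p of 0.00672 and an adjusted p of 0.885. A dimmer Ube2d2a probe set differed by 0.14 (95% interval -0.00035 to 0.28) with no overlap. Ube2e1 read 9.92, 9.67 and 9.86 in the knockouts and 9.62, 9.69 and 9.64 in wild type, so knockout 2 lay below wild type 2. Its difference was 0.17 (95% interval 0.0023 to 0.33), with an unadjusted limma p of 0.0475 and an adjusted p of 0.922. Without knockout 1 it was 0.12, with an unadjusted p of 0.181. One probe set each of Ube2d2a, Ube2d3 and Ube2e1 has an ID that marks oligonucleotides shared within a sequence family, so these signals may be partly the same.

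Ube2v1, a catalytically inactive partner with which Ube2n builds signalling chains, read 10.90, 11.04 and 10.96 in the knockouts and 10.83, 10.84 and 10.79 in wild type. The groups did not overlap and the difference was 0.14 (95% interval 0.0054 to 0.28), with an unadjusted limma p of 0.043 and an adjusted p of 0.922. Ube2n differed by 0.12, and the 2 probe sets of the related Ube2v2 by 0.045 and 0.026. At the other end lay Ube2a and Ube2b, which act with the ligase of postreplication repair, at -0.17 and -0.15, neither with an unadjusted p under 0.05. Ube2f, which conjugates the modifier Nedd8, read 8.59, 8.62 and 8.55 in the knockouts and 8.73, 8.83 and 8.62 in wild type. It differed by -0.14 (95% interval -0.29 to 0.0095), with knockout 2 just below wild type 3. The enzymes of cell division Ube2c and Ube2s differed by -0.047 and -0.015, and Ube2t differed by -0.084.

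**Figure D3:**
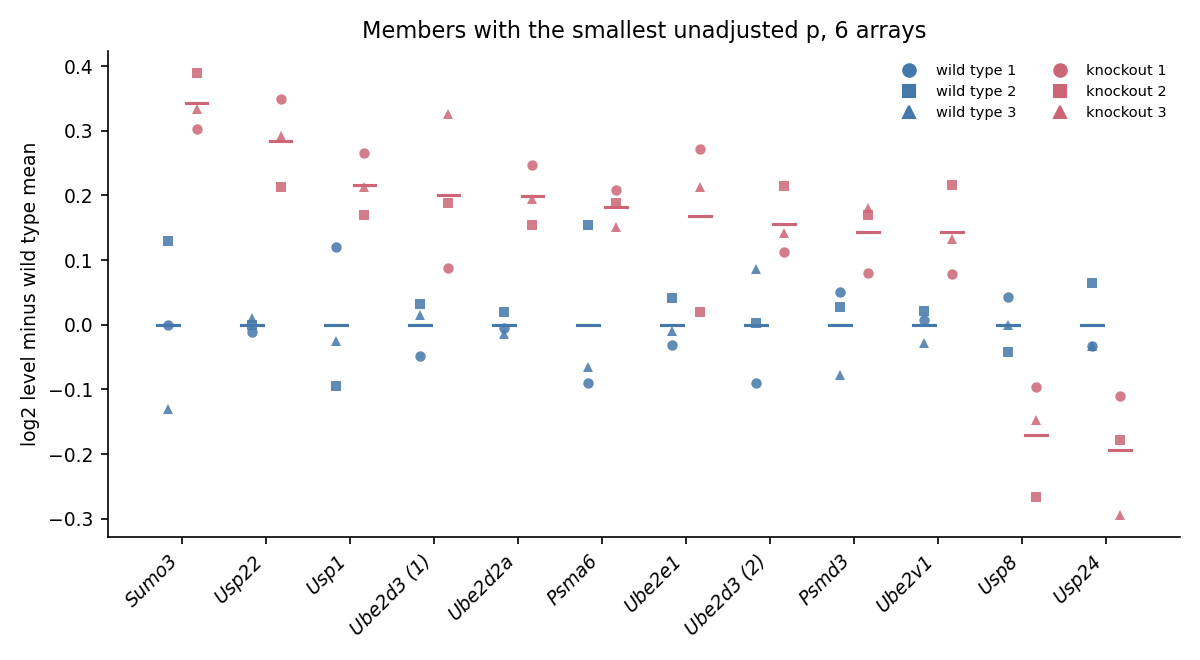
The 12 member probe sets with an unadjusted limma p under 0.05 are shown along the horizontal axis, with Ube2d3 at 2 probe sets. Each symbol is 1 array, placed by its log2 level minus the wild type mean of that probe set (vertical axis), and lines mark group means. Knockout and wild type symbols overlap for Psma6 and Ube2e1 and for none of the other 10, and the widest separation of means is 0.34 for Sumo3.

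Deubiquitinases of the Usp family were split. Of 39 probe sets for 27 genes, 19 were positive and 20 negative, from -0.22 for Usp9x to 0.28 for Usp22. Usp22, which removes ubiquitin from histones as part of a coactivator complex, read 10.46, 10.32 and 10.40 in the knockouts and 10.10, 10.11 and 10.12 in wild type. The wild type arrays nearly coincided and every knockout lay above them. The difference was 0.28 (SE 0.061, 95% interval 0.15 to 0.42), or 1.22-fold, with an unadjusted limma p of 0.000847 and an adjusted p of 0.841. It ran from 0.25 to 0.32 over single omissions. Usp1, which acts in DNA repair, read 9.73, 9.63 and 9.68 in the knockouts and 9.58, 9.37 and 9.44 in wild type, without overlap. It differed by 0.22 (SE 0.070, 95% interval 0.059 to 0.37), with an unadjusted limma p of 0.0117 and an adjusted p of 0.922.

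Usp24 and Usp8 had lower means in the knockouts. Usp24 read 8.65, 8.58 and 8.47 in the knockouts and 8.73, 8.83 and 8.73 in wild type, so every knockout lay below every wild type. The difference was -0.19 (SE 0.068, 95% interval -0.35 to -0.043), with an unadjusted limma p of 0.017 and an adjusted p of 0.922. Usp8, which acts on receptors at endosomes, read 8.88, 8.71 and 8.83 in the knockouts and 9.02, 8.93 and 8.97 in wild type. Its groups did not overlap either, with a difference of -0.17 (95% interval -0.32 to -0.023), with an unadjusted limma p of 0.0271 and an adjusted p of 0.922. After median centring the 2 differences were -0.16 and -0.14, with unadjusted limma p-values of 0.0323 and 0.0696. For Usp8 the unadjusted limma p was 0.0566 after quantile normalization and 0.0598 after cyclic loess. The X-linked Usp9x had the most negative value of all members, -0.22 at one probe set and -0.18 at another. Wild type 3 set much of it, at 9.29 against 8.62 to 8.81 in the other 5 arrays at the first, and neither value had an unadjusted p under 0.05 (0.142 at each).

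Usp14 and Uchl5 dock on the proteasome beside the resident Psmd14 and shorten chains before the target is degraded. Usp14 read 9.55, 9.40 and 9.60 in the knockouts and 9.43, 9.23 and 9.53 in wild type, a difference of 0.12 (95% interval -0.073 to 0.31). Another Usp14 probe set lay at percentile 0.837 and differed by -0.030, a sign that turned after median centring. Uchl5 read 8.71, 8.66 and 8.65 in the knockouts and 8.58, 8.69 and 8.58 in wild type, a difference of 0.059 (95% interval -0.077 to 0.19). Uchl1, the hydrolase abundant in neurons, read 12.11, 11.87 and 11.92 against 11.90, 11.83 and 11.76, with knockout 1 the highest array. It differed by 0.14 (95% interval -0.032 to 0.30), and by 0.066 without knockout 1.

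SUMO was represented by Sumo3. Sumo3 read 12.69, 12.77 and 12.72 in the knockouts and 12.39, 12.52 and 12.25 in wild type. The knockouts lay close together and above every wild type array. The means were 12.73 ± 0.04 (SD, n = 3) and 12.39 ± 0.13 (SD, n = 3). The difference was 0.34 (SE 0.075, 95% interval 0.18 to 0.51), or 1.27-fold, the most positive of the members, with an unadjusted limma p of 0.000985 and an adjusted p of 0.841. It was 0.36 without knockout 1, and its adjusted p ran from 0.424 to 1 over all settings. Enzymes that attach or remove SUMO did not share a direction, with 2 of 8 probe sets positive in a list of 5 measured genes, where 37.7% of all probe sets were. Pias3, a SUMO ligase, differed by 0.18 at a probe set at percentile 16.8 (95% interval 0.037 to 0.33), and by -0.0016 and -0.0049 at its 2 brighter probe sets.

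Other genes of the pathway were taken from a list of 111 symbols, of which 64 genes were measured at 93 probe sets. None passed, 48 were positive and 45 negative, and the median was 0.0031. Of all probe sets 37.7% were positive, with a median of -0.023. An unadjusted p under 0.05 was reached by 6 (6.45%, against 5.08% of all probe sets), of which 5 were higher and 1 lower. Of 45 ligase probe sets 24 were positive, with Rnf7, a ring subunit of cullin ligases, at 0.17 and Cbl, a ligase for receptor tyrosine kinases, at -0.20. Ube3a, the ligase lost in Angelman syndrome, differed by -0.18 (95% interval -0.39 to 0.039). Among shuttles and regulators 9 of 17 were positive, with Ufd1, a cofactor of the segregase Vcp, at 0.21 and Ubqln1, which carries ubiquitinated proteins to the proteasome, at 0.16 and 0.054. Vcp itself differed by 0.032 at its brightest probe set and by -0.088 to -0.041 at 3 dimmer ones. Otud5, a deubiquitinase of another family, differed by 0.19, 0.071 and -0.023 at its 3 probe sets.

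The height of a probe set on the array moved with the direction of its difference. The median difference over all probe sets was -0.037 between the 10th and 20th percentile of level and 0.020 above the 90th, where 58.4% were positive. Proteasome probe sets were concentrated high on the array, with a median level at percentile 85.6, against 67.3 for the conjugating enzymes and 55.0 for the Usp genes. At or above the 80th percentile, 27 of 30 proteasome probe sets were positive with a median of 0.069, where 51.9% of the 2485 probe sets at that height were positive with a median of 0.0050. Above the 90th percentile 17 of 19 were positive. After quantile normalization, which evens the distributions, 41 of 49 proteasome probe sets were positive with a median of 0.054, beside 47.8% of all probe sets. After median centring 48 of 49 were, beside 55.4% of all. Over single omissions the count ran from 35 of 49, without knockout 1 (beside 39.5% of all), to 43. It was 43 without wild type 2 (beside 37.1%) and without knockout 2 (beside 36.8%). Knockout 1 was the highest array for 23 of the 49. The 3 proteasome probe sets below the 10th percentile also had positive differences, but so near the bottom of the range a value can hardly show a change.

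**Figure D4:**
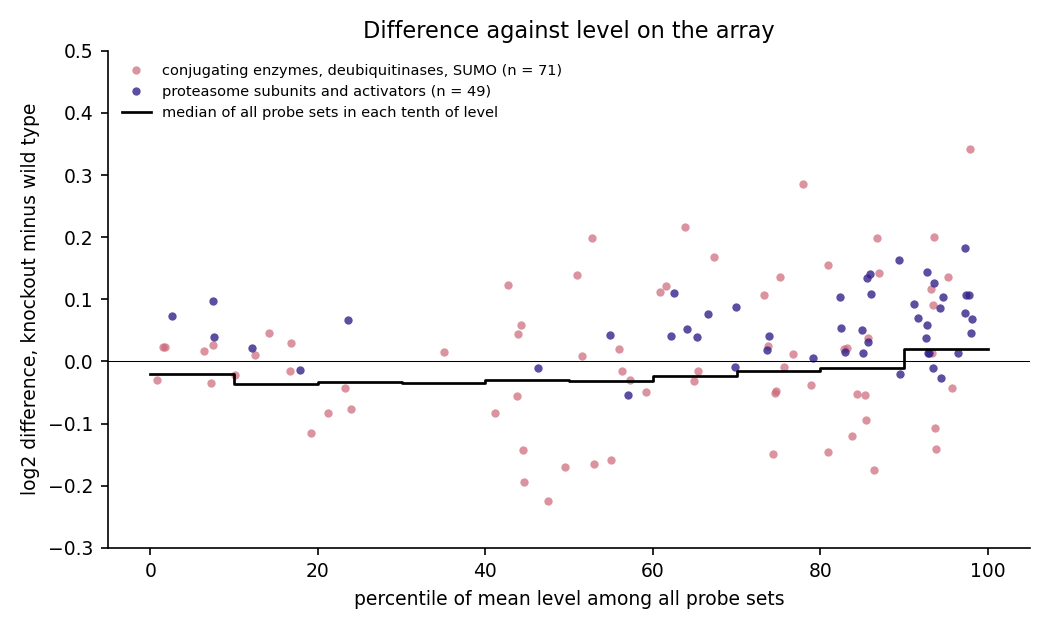
Each point is a member probe set, placed by the percentile of its mean level among all probe sets (horizontal axis) and its log2 difference, knockout minus wild type (vertical axis). The black line steps through the median of all probe sets in each bin of 10 percentiles, from -0.021 in the lowest bin to 0.020 in the highest, and 42 of the 49 proteasome points lie above 0.

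Genes with several probe sets gave a partial check of each other. Of the 2073 such genes over the whole array, all probe sets had 1 sign for 1156. Of the 25 such genes among the members, all probe sets had 1 sign for 17. The 8 with both signs were Psmb4, Ube2k, Ube2o, Ube2z, Usp14, Usp15, Usp38 and Usp39, and in these the values lay between -0.055 and 0.12. Ube2k, for example, differed by 0.12 without overlap at its dimmer probe set and by -0.054 at its brighter one. Usp3 was positive at all 3 of its probe sets (0.090 to 0.20) and Usp34 negative at both (-0.16 and -0.14), none with an unadjusted p under 0.05. With the probe sets of a gene averaged, all 15 core genes and 32 of 38 proteasome genes were positive, where 37% of the 9840 genes and unnamed probe sets in that fit were. There 12 of 91 members (13.2%) had an unadjusted p under 0.05, against 5.18% of the 9840.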

How the data were processed

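The 6 arrays, 1 per mouse, were deposited as a table of log2 expression values that the authors made with RMA, per the submitters' processing notes. RMA corrects background, normalizes between arrays and summarises each probe set. No source used here gives its version, its settings or a genome build. RMA pulls arrays towards 1 distribution, so a change in total RNA per cell cannot be read from the values. After 66 array controls were left out, 12422 probe sets entered the fit in limma (version 3.58.1, under R 4.3.3) (2-sided, lmFit with genotype alone, then eBayes, and Benjamini-Hochberg adjustment over all 12422 at 0.05). Arrays have no read depth, and their number limits the precision: the median 95% interval extended 0.158 on each side of a log2 difference.

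Symbols came from the array annotation, which gave 1 symbol for 10833 probe sets. All 91 member genes were found by gene ID in the RefSeq table with the same symbol, and 6 matching probe sets with several symbols were left out. The members and lists were chosen with earlier results of these data known. Named genes were members with an unadjusted p under 0.05, the 2 with the smallest p in each of 9 groups, and a list of core and proteasome-bound enzymes, together with their other probe sets. Other members (such as Psma1, Psmc4, Ube2a, Ube2f, Usp9x and Ube2k) were named after their values were seen, as was the split by level. Tested on simulated data of this size, with independent probe sets, the fit called 96% of 100 probe sets changed 1.5-fold and 100% of 100 changed 2-fold, with 9 false calls. Spreads were drawn from the distribution that eBayes fitted, and the planted changes made the adjusted p easier to pass. No change under 1.5-fold was simulated, and the largest member difference was 1.27-fold, so its chance of a call is not given. In the deposited data L1cam differed by -0.60 with a limma adjusted p of 0.841. The fit was repeated with arrays rescaled (by quantiles, by their medians or by cyclic loess), with each array omitted, without probe sets under the 40th percentile, with array weights, with replicate number as a block, with a trended robust variance, with probe sets averaged by gene, and without less specific probe sets. P-values set the difference between genotypes against the spread between mice within a genotype, at 3 mice each. In eBayes the spread of each probe set is drawn towards that of all probe sets.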

Additional observations from a re-analysis of the deposited data

Results flagged for a closer look

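Control probe sets of the array, which entered no comparison, stood apart in knockout 1 for Gapdh and Actb. The gap between the 3' and 5' control probe sets was 0.67 for Gapdh, against -0.048 to 0.12 in wild type, and 1.09 for Actb, against 0.82 to 0.93. The same gap in knockout 1 was 0.88 for pyruvate carboxylase, against 0.47 to 0.85 in wild type, and 1.33 for the transferrin receptor, against 1.14 to 1.33. With 3 arrays in each group, single arrays were not tested as outliers.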

How the results depend on the processing

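No member passed an adjusted p of 0.05 in limma under any setting, nor at a threshold of 0.1, and the lowest adjusted p among the members was 0.424, with array weights. Over all probe sets the count was 0, with 631 at an unadjusted p under 0.05, and 0 to 1 over single omissions (1 without knockout 3). Of 12 members at an unadjusted p under 0.05, 3 were under 0.01, all 3 higher and 0 lower. The share of all probe sets under 0.01 is not given, so that count has no background. With array weights 20 members were under 0.05, 16 higher and 4 lower, where 9.35% of all probe sets were. The lower count at 0.05 was 1 after median centring, 1 after cyclic loess and 4 with the replicate block. In either direction these settings gave 15, 13 and 11 members, where 5.43%, 4.85% and 5.1% of all probe sets were under 0.05. Over single omissions the higher count ran from 6 to 12 and the lower count from 2 to 4 (4 without wild type 1). After median centring the medians were 0.017 for conjugating enzymes, 0.022 for Usp genes and 0.055 for all members, and without less specific probe sets the Usp median was 0.0086. Counting Psmc3ip and Psme3ip1 with their groups, chosen after seeing the data, gave 0.046 for the ATPases and 0.088 for the activators. Signs turned for probe sets near 0: Psmb1 at -0.0045 after quantile normalization and -0.0023 after cyclic loess, Psmb5 at -0.0022 with array weights, and Usp14 at 0.0021 after median centring and 0.045 with its probe sets averaged. Over single omissions Psmb1 ran from -0.00034 to 0.027 at one probe set and from -0.022 to 0.13 at another, Psmb10 from -0.037 to 0.053, Psmb5 from -0.025 to 0.035, Psmc1 from -0.024 to 0.11, Psmc3 from -0.013 to 0.087 and from -0.022 to 0.092, and Psme1 from -0.014 to 0.15. The causes were not tested.

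The labels give both genotypes replicate numbers 1 to 3. Deviations of same-numbered arrays correlated at 0.16, -0.316 and 0.169, and not every array correlated best with its own number. Deviations from a mean of 3 arrays cancel within a genotype, so these values cannot show whether mice were paired. The labels do not say that the number pairs mice. With the replicate block 11 members (9.02%, against 5.1% of all probe sets) had an unadjusted p under 0.05 in place of 12.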
